A study of Mus musculus with 4 samples.

Results

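The genes described here are 8 that set where a T cell stays and where it goes: the chemokine receptors Ccr7, Cxcr3 and Cxcr4, the egress receptor S1pr1 with its antagonist Cd69, and the integrin chains Itga4, Itgb1 and Itgb7. They are 8 of 47643 genes in the count table, and all 8 were among the 9608 genes that reached a total of 10 counts and were tested. They were picked by name with the result of the comparison below already known, so their levels are given as a description, with no p-value. The libraries came from the spleens of Tg4 Nr4a3-Tocky Il10-eGFP mice, 24 h after 4 mg/kg of the [4Y]-MBP peptide was given under the skin. Tg4 is a transgenic T cell receptor that recognizes a peptide of myelin basic protein, Nr4a3-Tocky is a fluorescent Timer protein that is made after receptor signalling, and Il10-eGFP marks cells that transcribe Il10. All sorted T cells were CD4+ and Nr4a3-Timer+ and all came from treated mice. They differed in the reporter, with 2 libraries from Il10-eGFP+ and 2 from Il10-eGFP- T cells. Both populations thus came from mice with the same receptor transgene and the same treatment, and the age of the mice is not given in the sources used here. The study's methods say that the sorted cells came from replicate mice and speak of replicate pairs, but not which libraries share a mouse.

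Naive T cells circulate through spleen and lymph nodes, and enter the T cell zone along gradients of CCL19 and CCL21, which CCR7 detects. They leave by S1PR1, which follows sphingosine 1-phosphate into blood and lymph, while CD69 binds S1PR1 and pulls it from the surface of a newly activated cell. CXCR3 guides effector T cells to sites where interferon induces CXCL9 and CXCL10, CXCR4 detects CXCL12 in marrow and stroma, and the chain ITGA4 pairs with ITGB1 to bind VCAM-1 on inflamed vessels or with ITGB7 to bind MAdCAM-1 in the gut.

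The libraries held 644679 to 730330 counts each. Reads were taken from the 3′ ends of transcripts, where the number of reads does not grow with the length of the transcript, and levels are given as CPM, a gene's count scaled to a common library total, after TMM scaling (trimmed mean of M-values). All 11 T cell markers were measured, and their summed level was 3841 to 4103 CPM in Il10-eGFP- and 4423 to 4741 CPM in Il10-eGFP+ T cells. B cell and myeloid markers moved with the reporter, while CD8 and NK cell markers went in both directions. The summed level of 10 B cell and plasma cell markers was 116.7 and 160.4 CPM in Il10-eGFP- libraries, against 437.3 and 510.7 CPM in Il10-eGFP+ ones, with all 8 tested above 0 in log2 fold change, Ighm, Igkc, Cd22 and Jchain past the test of edgeR and the defining B cell gene Cd79a at 0 in both Il10-eGFP+ libraries. The summed level of 10 myeloid markers was 103.1 and 137.1 against 378.7 and 191.9 CPM, with all 8 tested above 0 in log2 fold change, Lyz2 and S100a8 past the test and the other 2, Cd14 and Adgre1, at 0 in all 4 libraries. For 8 CD8 and NK cell markers the sum was 51.6 and 93.3 against 99.8 and 106.8 CPM. Of the 6 tested, 3 were above 0 in log2 fold change, and Gzma passed. Cd8a and Cd8b1 were lower, with log2 fold changes of -1.10 and -0.70. Erythroid and platelet markers summed to 142.9 to 160.2 and 206.3 to 274.1 CPM. None of these 7 passed (2 had an unadjusted p under 0.05 in edgeR, and DESeq2 called 0), and of 7 endothelial and stromal markers none had enough counts to be tested. B or myeloid cells also express several of the genes below, among them Cxcr4, S1pr1, Itga4, Itgb1 and Itgb7. The part of these cells in the results was not tested, and in sorted populations fewer cells expressing a gene and less RNA per cell cannot be told apart.

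In pairs of values set against each other below, those of the Il10-eGFP- libraries come first, and replicate 1 precedes replicate 2. Ccr7, Cd69 and Itgb1 were lower in both Il10-eGFP+ libraries than in either Il10-eGFP- library, and Cxcr3, Cxcr4, S1pr1, Itga4 and Itgb7 were higher in both. Such a lack of overlap was found in 44.6% of all genes tested. The median log2 fold change of the 8 genes was 0.62, against 2.54e-05 over all genes. Ccr7 was the 1 gene of the 8 past the threshold (adjusted p under 0.05, edgeR), where 4.09% of all genes passed, 2.35% as higher and 1.74% as lower in Il10-eGFP+ T cells. Since the genes were chosen from this comparison, nothing is read from either count. At the ends of their transcripts none of the 8 shared a stretch of 50 bases with another gene.

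**Figure D1:**
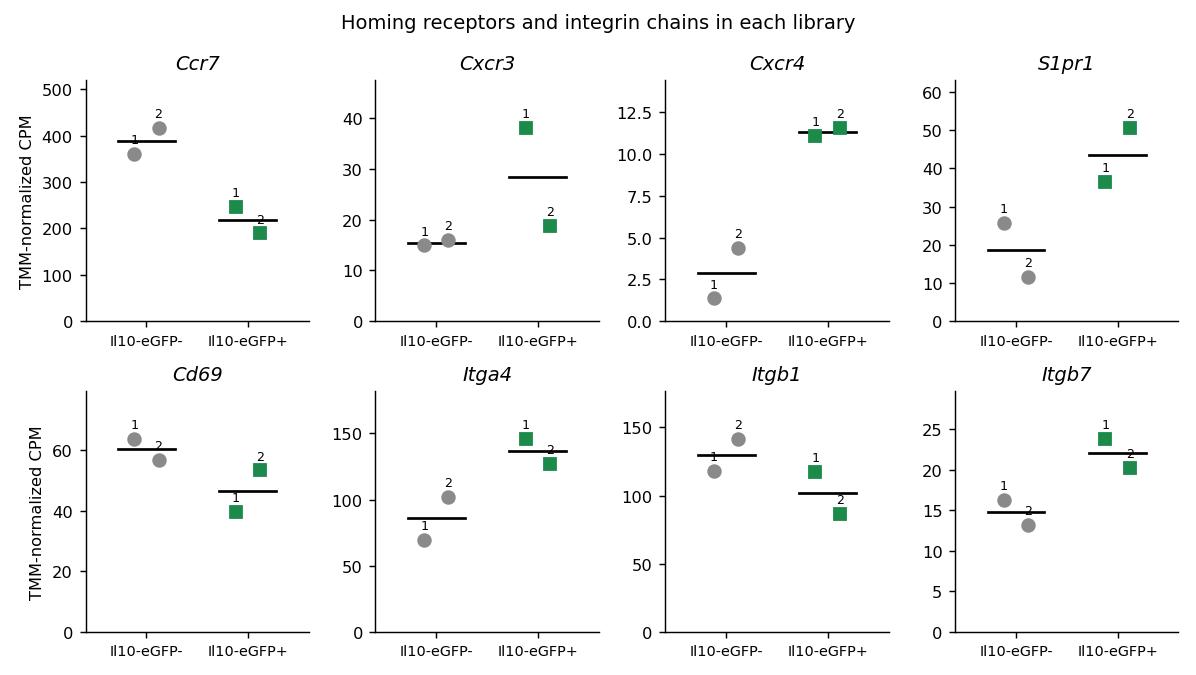
Level of each of the 8 genes in each library, in TMM-normalized CPM on linear axes that start at 0. Points are libraries, numbered by replicate, and bars are means of 2 libraries. Ccr7 runs from 189.0 to 415.8 CPM and the populations of Itgb1 nearly touch.

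Ccr7 (ENSMUSG00000037944, chr11:99144196-99155077 on the minus strand of GRCm38), the lymphoid homing receptor, was counted 265 and 285 times in Il10-eGFP- T cells, against 155 and 131 times in Il10-eGFP+ T cells. This corresponded to 359.7 and 415.8 against 245.6 and 189.0 CPM. Every Il10-eGFP+ library was thus well below both Il10-eGFP- libraries, but the mRNA was still abundant in each. The means were 387.8 ± 39.7 and 217.3 ± 40.0 CPM (SD, n = 2 libraries each). On the log2 scale the fold change was -0.84 (standard error 0.16). The ratio of pooled counts was 0.559 with an exact 95% interval of 0.483 to 0.646, which covers counting error only. Ccr7 lost its call when Il10-eGFP+ replicate 2, its lowest library, was left out, at a log2 fold change of -0.66.

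Cxcr3 (ENSMUSG00000050232, chrX:101731535-101734269 on the minus strand of GRCm38), the receptor for interferon-induced chemokines, was a weakly expressed gene here. Il10-eGFP- libraries held 11 counts each, and Il10-eGFP+ libraries 24 and 13. In CPM these were 14.9 and 16.1 against 38.0 and 18.8. Il10-eGFP+ replicate 1 was high, while replicate 2 was close to the Il10-eGFP- libraries. The log2 fold change was 0.85 (standard error 0.47) from means of 15.5 ± 0.791 and 28.4 ± 13.6 CPM (SD, n = 2 each). Without Il10-eGFP+ replicate 1 it was 0.28 and without replicate 2 it was 1.29, so 1 library decided its size.

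Cxcr4 (ENSMUSG00000045382, chr1:128588199-128592293 on the minus strand of GRCm38), the CXCL12 receptor, was the scarcest of the 8, at percentile 13.6 of the mean levels of all genes tested. It had 1 and 3 against 7 and 8 counts. The ratio of pooled counts was 4.03, with a 95% counting interval of 1.28 to 16.7. The Il10-eGFP+ libraries were alike, at 11.1 and 11.5 CPM, and the Il10-eGFP- libraries were both lower, at 1.36 and 4.38 CPM. At these counts the size of the difference is poorly set, and the log2 fold change of 1.94 (standard error 0.91) ran from 1.34 without Il10-eGFP- replicate 1 to 2.90 without Il10-eGFP- replicate 2.

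S1pr1 (ENSMUSG00000045092, chr3:115710433-115715072 on the minus strand of GRCm38), the receptor that T cells need to leave lymphoid organs, was higher in Il10-eGFP+ T cells. It had 19 and 8 against 23 and 35 counts. Levels were 25.8 and 11.7 against 36.4 and 50.5 CPM, with means of 18.7 ± 9.98 and 43.5 ± 9.93 CPM (SD, n = 2 each). The populations did not overlap, although each spread widely. The log2 fold change was 1.20 (standard error 0.40) and the ratio of pooled counts 2.31 (95% counting interval 1.44 to 3.79). It fell to 0.76 without Il10-eGFP- replicate 2 and grew to 1.89 without Il10-eGFP- replicate 1, where S1pr1 passed the threshold.

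Cd69 (ENSMUSG00000030156, chr6:129267325-129275436 on the minus strand of GRCm38), an early activation gene whose product holds S1PR1 inside the cell, was lower by an amount within its counting error. It was counted 47 and 39 against 25 and 37 times, or 63.8 and 56.9 against 39.6 and 53.4 CPM. Il10-eGFP+ replicate 2 was just below the Il10-eGFP- libraries. Means were 60.4 ± 4.87 and 46.5 ± 9.73 CPM (SD, n = 2 each) and the log2 fold change was -0.37 (standard error 0.30). The counting interval of the pooled ratio, 0.550 to 1.09 around 0.774, includes equal levels, so a difference in Cd69 was not detectable at this depth.

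Itga4 (ENSMUSG00000027009, chr2:79255426-79333123 on the plus strand of GRCm38) encodes the alpha chain shared by both of the integrins considered here. Counts were 51 and 70 against 92 and 88. Levels were 69.2 and 102.1 against 145.8 and 127.0 CPM, and the means were 85.7 ± 23.3 and 136.4 ± 13.3 CPM (SD, n = 2 each). Both Il10-eGFP+ libraries were higher, and Il10-eGFP- replicate 1 was the lowest. The log2 fold change of 0.67 (standard error 0.22) did not pass the threshold. Itga4 did pass with the replicate number as a block (0.68), among genes with at least 10 counts in every library (0.68) and without Il10-eGFP- replicate 2 (0.98). Exons of Itga4 overlap Cerkl on the other strand, which had 0 or 4 counts per library.

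The beta chains that partner Itga4 differed from each other in sign. Itgb1 (ENSMUSG00000025809, chr8:128685654-128733200 on the plus strand of GRCm38), the partner for VCAM-1, had 87 and 97 against 74 and 60 counts. Its levels were 118.1 and 141.5 against 117.3 and 86.6 CPM, so that replicate 1 of each population was nearly equal. The log2 fold change was -0.35 (standard error 0.22), and the pooled ratio was 0.782 (95% counting interval 0.621 to 0.983). Itgb7 (ENSMUSG00000001281, chr15:102215995-102231944 on the minus strand of GRCm38), the partner for the gut ligand MAdCAM-1, had 12 and 9 against 15 and 14 counts. At 16.3 and 13.1 against 23.8 and 20.2 CPM the Il10-eGFP+ libraries were higher without overlap. The log2 fold change was 0.57 (standard error 0.50), but the counting interval of the pooled ratio of 1.48, 0.817 to 2.74, includes equal levels, and a difference was not detectable at this depth.

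The promoters of these integrin chains are shown as a description of their letters. The estimated differences of the shared alpha chain and its partners were not of 1 sign. None of them passed the threshold, however, and that of Itgb7 was not detectable at this depth. The windows are the 250 bases before the start of each gene in RefSeq, on GRCm38.p6. This start can differ from the gene positions given above. On the minus strand the Itgb7 window begins at 102231936, within a gene span that ends at 102231944. The Cxcr3 window begins at 101734148, within a span that ends at 101734269. The table of promoters held 5 of the 8 genes (Cxcr3, Cxcr4, Itga4, Itgb1 and Itgb7). Capitals mark the letters CCACCC, the core of sites for KLF factors, and ACCACA, the core of sites for RUNX factors, on either strand.
Itga4, chr2:79255176-79255425, plus strand: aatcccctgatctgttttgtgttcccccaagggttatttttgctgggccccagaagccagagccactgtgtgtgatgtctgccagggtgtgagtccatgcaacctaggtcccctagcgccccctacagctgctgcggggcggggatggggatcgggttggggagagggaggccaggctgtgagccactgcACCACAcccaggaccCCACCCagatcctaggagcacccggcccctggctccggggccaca
Itgb7, chr15:102231936-102232185, minus strand: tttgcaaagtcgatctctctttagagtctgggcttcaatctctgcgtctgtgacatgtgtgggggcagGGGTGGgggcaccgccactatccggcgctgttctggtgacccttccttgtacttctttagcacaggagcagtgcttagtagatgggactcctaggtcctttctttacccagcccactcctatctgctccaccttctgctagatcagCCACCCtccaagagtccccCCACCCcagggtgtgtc
Itgb1, chr8:128685404-128685653, plus strand: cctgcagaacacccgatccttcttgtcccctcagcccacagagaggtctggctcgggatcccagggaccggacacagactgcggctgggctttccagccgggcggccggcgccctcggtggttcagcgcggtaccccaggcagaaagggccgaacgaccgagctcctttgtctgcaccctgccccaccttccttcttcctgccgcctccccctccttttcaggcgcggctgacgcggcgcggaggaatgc
The Itga4 window held 1 match to each set of letters and the Itgb7 window 3 matches to CCACCC, whereas the Itgb1 window held neither. Cxcr3 held 1 ACCACA and Cxcr4 neither. Of all 32851 promoters in the table, 28.1% held CCACCC and 14.0% held ACCACA on either strand. Another set of letters, TCACACC, which is bound by T-box factors and shares no letters with a match of the others here, was present in 3.33% of all promoters and among the 5 only in Itga4, with 1 match (left in lower case). These matches describe the letters, and binding was not measured.

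**Figure D2:**
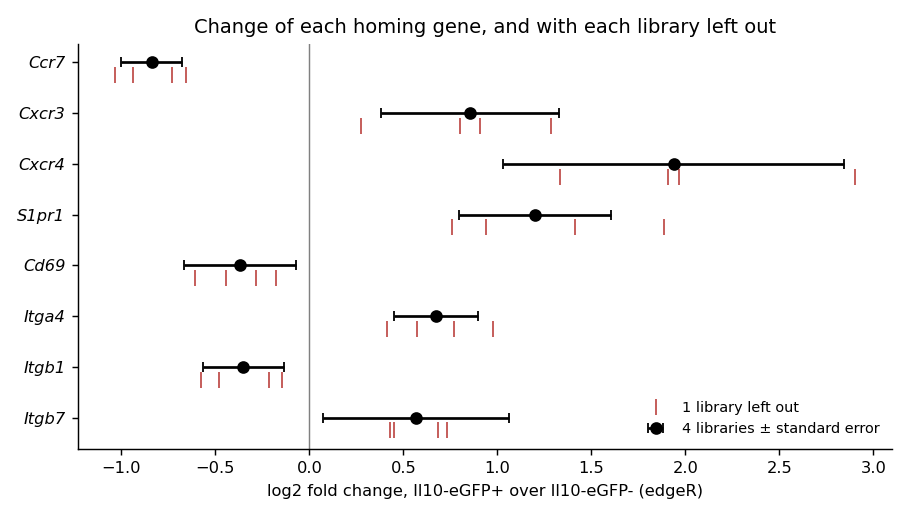
Log2 fold change of each gene in Il10-eGFP+ over Il10-eGFP- T cells from edgeR, with its standard error (black) and the values with each library left out in turn (red ticks). No gene changes direction when a library is left out, and the ticks of S1pr1 spread from 0.76 to 1.89.

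The ratio of a pair of genes within a library does not depend on library size or on scaling. Il10-eGFP- libraries held 24.1 and 25.9 Ccr7 counts for each Cxcr3 count, and Il10-eGFP+ libraries 6.46 and 10.1. As a share of the counts of both genes, Ccr7 made up 96.0% and 96.3% against 86.6% and 91.0%. The 95% counting interval of Il10-eGFP+ replicate 2, 85.06 to 95.11%, overlapped those of both Il10-eGFP- libraries (92.98 to 97.99% and 93.45 to 98.13%). That of Il10-eGFP+ replicate 1, 80.71 to 91.22%, did not. The balance of the lymphoid to the inflammatory receptor was thus lower in both Il10-eGFP+ libraries, by 1.61 ± 0.31 on the log2 scale (the SD is that within populations, n = 2 each). Cd69 and S1pr1 showed a shift of like size. There were 2.47 and 4.88 against 1.09 and 1.06 Cd69 counts for each S1pr1 count, a difference of -1.65 ± 0.47 on the log2 scale. The Il10-eGFP+ libraries had near equal counts of both genes. For the share of Cd69, the counting interval of Il10-eGFP- replicate 1 (58.75 to 81.7%) overlapped those of both Il10-eGFP+ libraries (37.19 to 66.71% and 39.31 to 63.35%). That of Il10-eGFP- replicate 2 (69.19 to 92.35%) did not. Without Il10-eGFP- replicate 2 the difference was -1.19.

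For the integrins, the ratio of Itgb7 to Itgb1 was 0.138 and 0.0928 against 0.203 and 0.233. Relative to Itgb1, Itgb7 was higher in Il10-eGFP+ T cells by 0.92 ± 0.29 on the log2 scale (SD within populations, n = 2 each), but Itgb1 remained the more abundant chain in every library. In contrast, the ratio of Itgb7 to Itga4 overlapped, at 0.235 and 0.129 against 0.163 and 0.159. Its difference of -0.13 ± 0.42 on the log2 scale was smaller than the spread within populations and changed sign without Il10-eGFP- replicate 1, to 0.30.

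**Figure D3:**
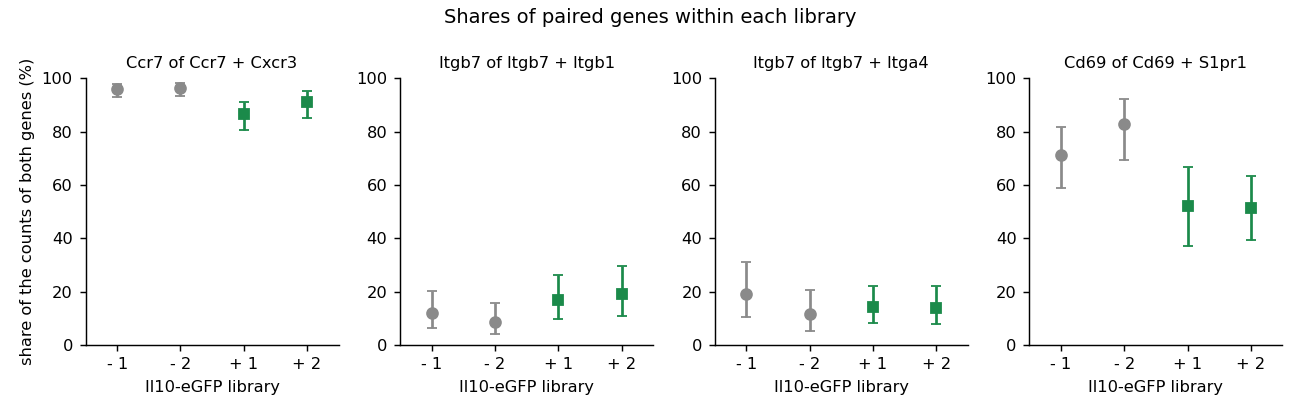
Share of the first gene in the counts of a pair, in percent, in each library (grey, Il10-eGFP-; green, Il10-eGFP+). Bars are exact 95% intervals (Clopper-Pearson), which cover counting error only. Cd69 holds 71.2% and 83.0% in the grey and 52.1% and 51.4% in the green libraries, and the shares of Itgb7 with Itga4 overlap.

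Ordered by mean CPM, Ccr7 was the most abundant of the 8 in both populations and Cxcr4 the least. In Il10-eGFP- T cells Ccr7 was followed by Itgb1, Itga4 and Cd69, each above the next in both libraries, and then by S1pr1, Cxcr3 and Itgb7, whose libraries overlapped. In Il10-eGFP+ T cells Itga4 moved above Itgb1, at 136.4 against 101.9 CPM. Cd69 and S1pr1, at 46.5 and 43.5 CPM, then no longer differed beyond their spread, and neither did S1pr1 and Cxcr3 or Cxcr3 and Itgb7. Mean levels ran from percentile 13.6 of all genes tested for Cxcr4 to percentile 94.9 for Ccr7. In the deposited rlog values, a log2 scale on which scarce genes are shrunk to their average, the 8 differences kept their sign. Ccr7 went from 7.83 and 7.97 to 7.47 and 7.24, a difference of -0.54, and Itga4 differed by 0.29 and S1pr1 by 0.22. Cxcr4, the gene with the largest fold change in counts, differed by 0.09 on this scale.

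The other genes of lymphocyte homing were counted in 8 lists made by role. Of 146 listed genes 102 were tested, and 12 of them rose and 3 fell with the reporter (adjusted p under 0.05 in edgeR, adjusted over all 9608 genes). These 14.7% stand beside 4.09% of all genes, and the median log2 fold change was 0.26. The lists, too, were chosen with earlier results of these data known, so nothing is read from this share. DESeq2 called 4 of the 102, and gave no adjusted p for the scarce gene Ccr2.

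**Figure D4:**
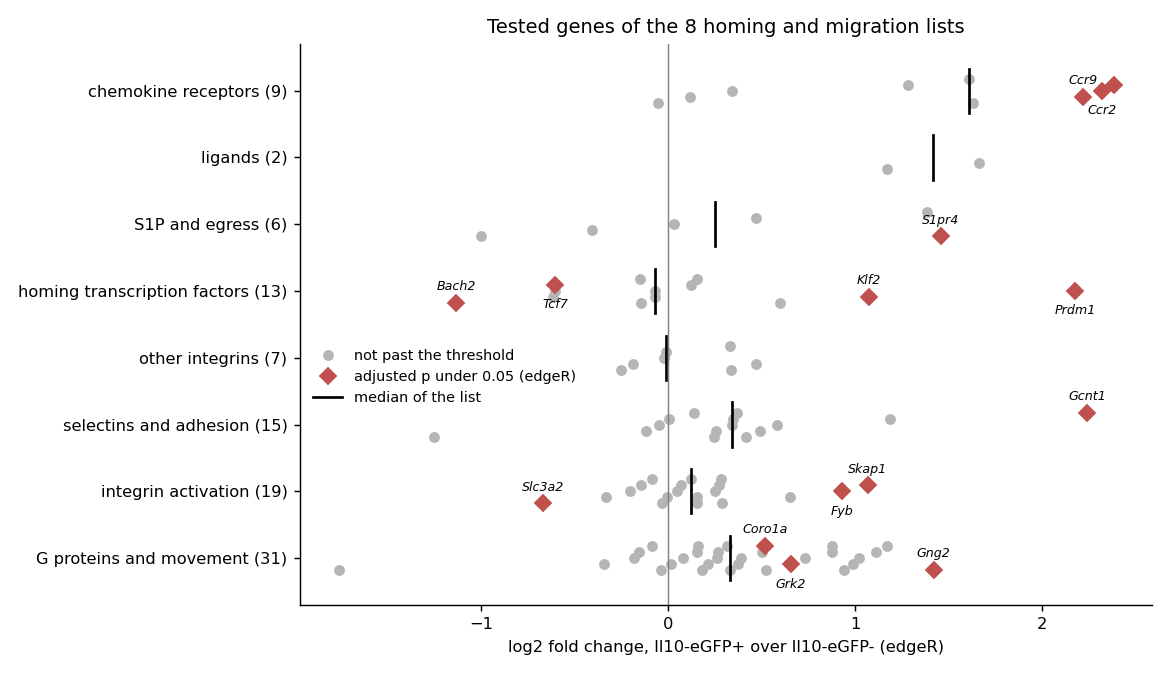
Log2 fold change of each tested gene of the 8 lists, in Il10-eGFP+ over Il10-eGFP- T cells (edgeR), with the number tested in parentheses. Red diamonds passed the threshold, grey points did not, and black lines are medians of the lists. Chemokine receptors sit furthest to the right, with a median of 1.61.

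Among the other chemokine receptors 9 of 20 listed were tested and 3 rose, Ccr9 and Ccr2 among them. Of the 9, 8 had a log2 fold change above 0 and the median was 1.61. Ccr9, which directs T cells to the small intestine, had 7 and 6 against 31 and 26 counts, with means of 9.13 ± 0.528 and 43.3 ± 8.21 CPM (SD, n = 2 each). It rose by a log2 fold change of 2.22 (standard error 0.46), with an adjusted p of 0.00133 in edgeR and 0.0638 in DESeq2, and was called by edgeR with each library left out. Ccr2, the CCL2 receptor of monocytes and effector T cells, had 3 and 3 against 11 and 18 counts, and the pooled ratio was 5.19 with a counting interval of 2.12 to 15.3 (edgeR adjusted p = 0.0310). Its call was lost with each library left out, at adjusted p-values of 0.0516 to 0.342 in edgeR, and rests on few counts. Both receptors moved with the B cell and myeloid markers given above, whose part in them was not tested. The follicular receptor Cxcr5, with 24 and 24 against 19 and 38 counts, Cxcr6, with 4 and 6 against 12 and 11, and Ccr6, with 1 and 5 against 6 and 12, had adjusted p-values of 0.734, 0.319 and 0.309 (edgeR). Another 8 receptors had no count in any library.

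Of 9 ligands for these receptors and integrins, only Cxcl9 and Cxcl10, the ligands of CXCR3, had enough counts to be tested. Cxcl9 had 3 and 6 against 17 and 10 counts, and Cxcl10 had 3 and 5 against 11 and 6. Neither passed (edgeR adjusted p = 0.135 and 0.490), 1 of them had an unadjusted p under 0.05, and DESeq2 called 0. Both are known from myeloid cells, whose summed markers were also higher in the Il10-eGFP+ libraries. Ccl19, Ccl21a, Cxcl12 and Madcam1, which stromal or endothelial cells make, had no count in any library.

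Of 12 genes of sphingosine 1-phosphate and egress 6 were tested, and S1pr4, a receptor for the same lipid on lymphocytes, rose. It had 16 and 7 against 30 and 29 counts, a log2 fold change of 1.46 (standard error 0.41, edgeR adjusted p = 0.0277). Its Il10-eGFP+ libraries were alike and both above the Il10-eGFP- libraries. The call was lost without Il10-eGFP- replicate 2 (edgeR adjusted p = 0.275), Il10-eGFP+ replicate 1 (0.154) or Il10-eGFP+ replicate 2 (0.0745), and in DESeq2 (0.341). Sgpp1, a phosphatase that removes sphingosine 1-phosphate, had 34 and 39 against 14 and 20 counts, and Sgpl1, the lyase that breaks it down, 35 and 34 against 49 and 40 (edgeR adjusted p = 0.100 and 0.467). Gpr183, the oxysterol receptor that positions lymphocytes in the spleen, had 131 and 137 against 82 and 107 counts, a log2 fold change of -0.40 that did not pass (edgeR adjusted p = 0.266).

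Of 14 transcription factors of the homing programme 13 were tested, 2 rose and 2 fell, and the median was -0.07. Klf2, which drives S1pr1 in resting T cells, rose from 56.9 ± 4.06 to 120.6 ± 40.0 CPM (SD, n = 2 each), with 44 and 37 against 94 and 64 counts. Its log2 fold change was 1.07 (standard error 0.25, edgeR adjusted p = 0.00531). The call was lost without Il10-eGFP+ replicate 1 (edgeR adjusted p = 0.294) and in DESeq2 (0.152). Prdm1, which encodes the repressor Blimp-1, rose as well, by a log2 fold change of 2.18 (edgeR adjusted p = 5.88e-06). It is also a gene of plasma cells, whose marker Jchain had 0 and 0 against 15 and 16 counts, and their part in it was not tested. Both Tcf7 and Bach2, factors of the naive and memory state, fell. Bach2 had 138 and 128 against 46 and 67 counts, a log2 fold change of -1.13 (standard error 0.21, edgeR adjusted p = 0.000208), and with Prdm1 was called in all 13 alternatives at this threshold, DESeq2 included. Tcf7 had 271 and 241 against 165 and 148 counts, a log2 fold change of -0.60 (standard error 0.16, edgeR adjusted p = 0.0156), and its call was lost without Il10-eGFP- replicate 1 (edgeR adjusted p = 0.0963), without Il10-eGFP+ replicate 2 (0.268) and in DESeq2 (0.157). The abundant factors Satb1, Runx3 and Foxo1, the last a driver of Klf2 and Ccr7, had log2 fold changes of -0.14, -0.15 and -0.07 (edgeR adjusted p = 0.677, 0.755 and 0.924).

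**Figure D5:**
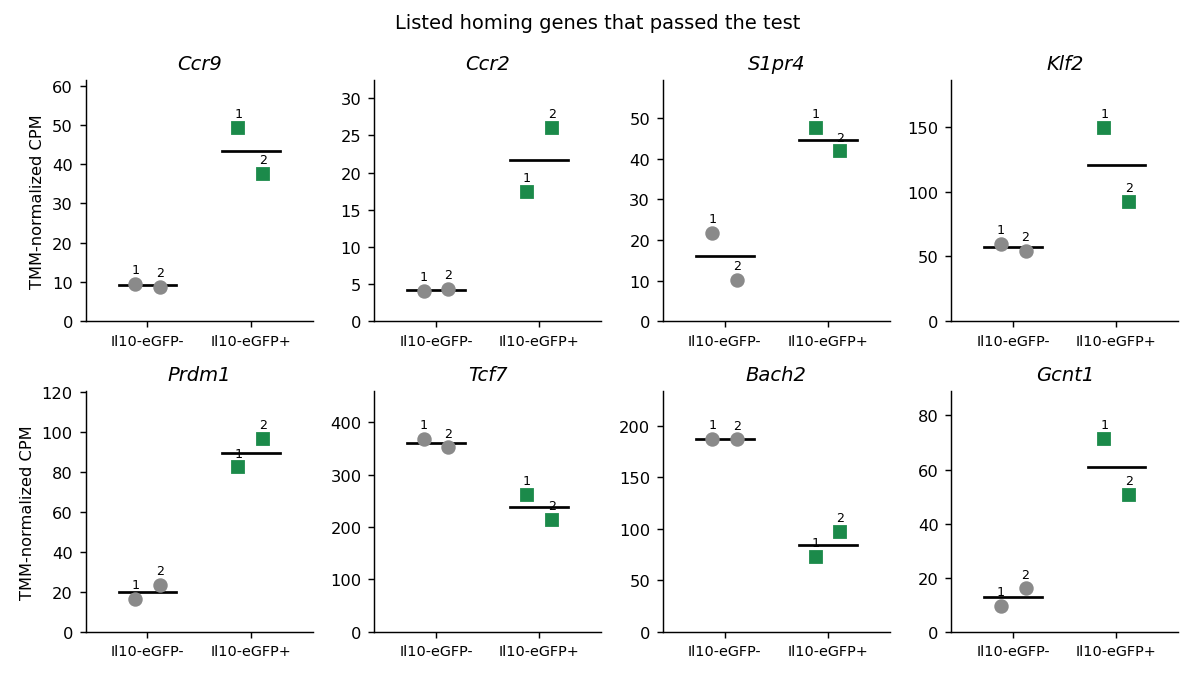
Level of 8 listed genes that passed the edgeR test, in each library, in TMM-normalized CPM on linear axes that start at 0. Points are libraries, numbered by replicate, and bars are means of 2 libraries. In each panel the populations do not overlap, and the mean of Ccr9 is 9.13 CPM in Il10-eGFP- and 43.3 CPM in Il10-eGFP+ T cells.

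None of the 21 other integrin chains passed, of which 7 were tested, with a median log2 fold change of -0.01. At an unadjusted p under 0.05 in edgeR 2 of the 7 passed, and DESeq2 called 0. The chains of LFA-1, which binds ICAM-1, were the most abundant. Itgal had 191 and 155 against 207 and 198 counts and Itgb2 had 175 and 198 against 199 and 239 counts, with log2 fold changes of 0.33 each (edgeR adjusted p = 0.293 and 0.291). Itgae, the other partner of Itgb7, had 1 and 0 against 1 and 2 counts and was not tested.

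Of 19 selectins, selectin ligands and adhesion molecules 15 were tested and Gcnt1 alone passed. Gcnt1, the glycosyltransferase that builds the core branch needed on ligands of P-selectin, rose from 12.8 ± 4.63 to 60.9 ± 14.7 CPM (SD, n = 2 each). The libraries held 7 and 11 against 45 and 35 counts, so that both Il10-eGFP+ libraries were far above the others. The log2 fold change was 2.24 (standard error 0.40, edgeR adjusted p = 0.000169), and the gene was called in every alternative that tested it, at adjusted p-values up to 0.0373. Selplg, the protein that carries the P-selectin ligand, had 55 and 48 against 40 and 66 counts (edgeR adjusted p = 0.879). Spn, Cd47 and Cd2, the most abundant of this list, had log2 fold changes of 0.25, 0.34 and -0.05 (edgeR adjusted p = 0.502, 0.311 and 0.940).

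All 19 genes of integrin activation were tested, of which Skap1 and Fyb rose and Slc3a2 fell. Skap1 and Fyb encode adaptors that bind each other and link the T cell receptor to LFA-1. Skap1 had 34 and 31 against 62 and 65 counts and Fyb 58 and 45 against 68 and 116, with log2 fold changes of 1.07 and 0.93 (edgeR adjusted p = 0.00990 and 0.00974). The Skap1 libraries were alike within each population, while Fyb rested more on Il10-eGFP+ replicate 2. Skap1 just missed the threshold without Il10-eGFP- replicate 1, Il10-eGFP- replicate 2 or Il10-eGFP+ replicate 1 (edgeR adjusted p = 0.0615, 0.0560 and 0.0570), and its adjusted p in DESeq2 was 0.197. Fyb was lost without Il10-eGFP- replicate 2 (0.0888) or Il10-eGFP+ replicate 2 (0.389) and in DESeq2 (0.207), and its transcript ends share 221 of 3064 stretches of 50 bases with Phb. Slc3a2, the CD98 chain that binds integrin tails, had 158 and 104 against 76 and 77 counts (log2 fold change -0.67, edgeR adjusted p = 0.0405) and was lost without Il10-eGFP- replicate 1 (0.537), Il10-eGFP+ replicate 1 (0.0891) or Il10-eGFP+ replicate 2 (0.205) and in DESeq2 (0.391). The talin gene Tln1, with Rap1b and Rassf5, had adjusted p-values of 0.384 to 0.746 in edgeR.

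Of 32 genes of G protein signalling and cell movement 31 were tested. Gng2, Grk2 and Coro1a rose and none fell, with 25 of 31 log2 fold changes above 0 and a median of 0.33. Gng2 encodes a G protein gamma chain, Grk2 a kinase that desensitizes chemokine receptors and S1PR1, and Coro1a an actin regulator that naive T cells need to leave lymphoid organs. Gng2 had 8 and 15 against 25 and 33 counts, Grk2 92 and 106 against 142 and 149, and Coro1a 475 and 367 against 560 and 559. Their log2 fold changes were 1.42, 0.66 and 0.52 (edgeR adjusted p = 0.0342, 0.0250 and 0.0133). Gng2 and Grk2 each lost the call without Il10-eGFP- replicate 1, Il10-eGFP+ replicate 1 or Il10-eGFP+ replicate 2 (edgeR adjusted p = 0.0630 to 0.325 and 0.0739 to 0.285) and in DESeq2 (0.389 and 0.254), and Coro1a without Il10-eGFP- replicate 2 (0.187) or Il10-eGFP+ replicate 1 (0.165). Exons of Coro1a overlap Bola2 on the other strand, with 143 and 145 against 93 and 138 counts, and the strand setting of the counting is not given. Gnai2, the inhibitory G protein that chemokine receptors use, Rac2 and Cdc42 had log2 fold changes of 0.32, 0.39 and 0.02 (edgeR adjusted p = 0.264, 0.150 and 0.983).

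The genes whose pattern over the 4 libraries was nearest to each of the 8 were named by the root-mean-square difference of centred log2 CPM, among 3486 other genes with a mean of at least 50 CPM. Nearest to Ccr7 were Nfkbib (0.0251) and Kti12 (0.0280), to Cxcr3 Trim37 (0.0625) and Rgs19 (0.118), and to Cxcr4 Cenpa (0.119) and Nuf2 (0.236). Nearest to S1pr1 were Cux1 (0.213) and Socs3 (0.225) and to Cd69 Larp1 (0.0254) and Poldip3 (0.0309). For the integrins they were Rnf20 (0.0476) and Capza1 (0.0479) for Itga4, Fkbp8 (0.0225) and Emc8 (0.0272) for Itgb1, and Arrb2 (0.0159) and Midn (0.0197) for Itgb7. With 4 libraries many genes lie this close to a pattern, and no more is read from the names.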

How the data were processed

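Messenger RNA was measured by QuantSeq 3′ sequencing in 2 Il10-eGFP+ and 2 Il10-eGFP- libraries. The authors deposited raw gene counts (Ensembl identifiers) from BlueBee's QuantSeq pipeline on GRCm38 (STAR 2.5.2a and HTSeq 0.6.0 in the submitters' processing notes), and rlog values on a log2 scale, made from these counts with DESeq2. The methods state that unique molecular identifiers served to assess duplicates and remove amplification bias. They call the values raw read counts, but do not say whether duplicates were removed before counting, nor give the strand setting. Duplicates left in the counts would make counting intervals too narrow. For RNA extraction the methods name an Arcturus Picopure kit and the labels a PureLink kit. A replicate pair that the authors removed as an outlier was not analysed here. The rlog table holds 9546 genes, and 0 columns of samples were left unused.

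From the deposited counts, the genes that reached 10 counts in total entered edgeR 4.0.16 under R 4.3.3 (TMM factors of 0.985 to 1.02, quasi-likelihood F test, Benjamini-Hochberg adjustment over all 9608 genes, threshold 0.05). Alternatives were DESeq2 1.42.0, limma 3.58.1, other scalings, filters, a block for the replicate number and omission of 1 library at a time. Log2 CPM used a prior count of 0.5. Intervals are exact at 95%. Shared sequence was searched as words of 50 bases in the last 500 bases of transcripts, and gene positions are those of GENCODE M21 (GRCm38). Of the gene identifiers, 419 had no symbol.

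The 8 genes and all lists were chosen with earlier results of these data known. Besides the 8, the text names each listed gene past the threshold, the 3 most abundant tested genes of each list that were not, called markers and the 2 nearest genes of each of the 8. A tested gene named outside this rule (Selplg) and genes too scarce to test were added after their values were seen. Some results that the rule would name are not reported here.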

Additional observations from a re-analysis of the deposited data

How the results depend on the processing

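The edgeR test called 393 genes in all, of which 15 were listed homing genes and 1 was among the 8 genes described. With a threshold of 0.01 these were 177, 8 and 1. They were 112, 4 and 1 with DESeq2 and 197, 5 and 1 when the rlog values were tested in limma, and leaving out a library in turn gave 201 to 264, 7 to 10 and 0 to 2 genes. Ccr7 was the gene called in each of these, except without Il10-eGFP+ replicate 2, where 0 of the 8 passed. With at least 10 counts in every library, 2 of the 8 passed (Ccr7 and Itga4). Fitting the replicate number as a block called 560 genes, 17 listed genes and 2 of the 8 (Ccr7 and Itga4), and changed no other call among the named genes. The methods speak of replicate pairs, but neither they nor the labels say that a number marks a shared mouse, and the correlation of deviations between libraries that share a number was 0.0319 over 4965 genes, so the numbers were not taken as pairs. The causes of these differences were not tested.

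The log2 difference in Cd69 to S1pr1 ran from -2.12 to -1.19 with a library left out, in Ccr7 to Cxcr3 from -1.92 to -1.30, in Itgb7 to Itgb1 from 0.64 to 1.20 and in Itgb7 to Itga4 from -0.55 to 0.30. The log2 fold changes of the 8 genes kept their sign in every alternative. Of the named genes that did not pass the test, 4 changed sign under some alternative. With a library left out, Cd2 ran from -0.23 to 0.11 and was 0.03 without Il10-eGFP- replicate 2, Cdc42 ran from -0.077 to 0.12, Cxcr5 from -0.16 to 0.70 and Rassf5 from -0.31 to 0.014. Cdc42 was -0.0097 with library size only. DESeq2 gave no adjusted p for 4284 genes, Cxcr3, Cxcr4 and Itgb7 among them. With 2 libraries a population and under 50 counts per library for Cxcr3, Cxcr4, S1pr1, Cd69 and Itgb7, differences of the size seen in these genes are poorly resolved.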
